A study of Mus musculus with 191 samples.

Results

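Collagen genes were taken as every gene whose symbol has the form Col, a type number, the letter a and a chain number, and whose mean value reached 1 in at least 1 of 5 tissues. The tables listed 44 such genes among 21205 genes in all, and 43 met the mean of 1. The exception was Col19a1. Of these 43 collagen genes, 41 reached the mean in ear skin, 34 in both gut and lung, 31 in bone marrow and 20 in liver. Every gene with a mean of at least 1 was tested: 15946 in skin, 15158 in gut, 15641 in lung, 14289 in marrow and 12504 in liver.

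Collagens are trimers of long alpha chains, each chain from its own gene, wound into a triple helix. Fibril-forming types (I, II, III, V, XI, XXIV and XXVII) give tissues tensile strength, network types such as IV build basement membranes, and others coat fibrils, anchor the epidermis or span the cell membrane. Chains are hydroxylated and folded in the endoplasmic reticulum, secreted, trimmed by proteases and crosslinked by lysyl oxidases. In skin most fibrillar collagen comes from dermal fibroblasts, in bone from osteoblasts, and collagen XVII from basal keratinocytes.

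RNA was sequenced from mice killed around the day, with time given as zeitgeber time (ZT, hours after lights on). In bone marrow, gut, liver and lung, WT C57BL/6 mice had received 3 µg/g of anti-Ly6G (clone 1A8, against the neutrophil surface protein Ly6G) or of IgG control for 2 days, with 3 mice at each of ZT 1, 5, 9, 13, 17 and 21, so 18 libraries a group. Ear skin, taken after perfusion with saline, came from 3 groups with 1 mouse at each ZT. The 16 mice called control here are labelled WT C57BL/6 and received diphtheria toxin. The 16 mice called iDTR are labelled Mrp8CRE; iDTR and received the toxin at 10 µg/kg for 2 days: Cre under the Mrp8 promoter, active mainly in neutrophils, switches on a toxin receptor. The 15 mice called Bmal1-flox are labelled Mrp8CRE; Bmal1-flox, without toxin and with no strain in the labels, and Cre there removes the clock gene Bmal1 (Arntl) from the same lineage. Bmal1-flox lacks ZT 16. So iDTR and Bmal1-flox share the Cre, and control and iDTR share the toxin. The comparison of iDTR against Bmal1-flox differs in the toxin and the iDTR allele as well as the floxed allele. By the labels, Bmal1-flox against control differs in the Cre and the toxin as well as the floxed allele. The files do not show in which cells of the skin the receptor was present, and ages were not given in the sources used here. Some antibody-treated mice lived under an inverted light cycle (a 12 h shift), without a label that marks them.

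Depth lay between 7.68 M and 30.9 M estimated counts a library, and 1 read was worth 0.0319 to 0.131 of the deposited unit. The marker checks left some labels in doubt. In marrow Ly6g averaged 104 ± 10.6 (SD, n = 18) with IgG and 118 ± 18.6 with anti-Ly6G. In skin the control libraries held Gt(ROSA)26Sor at 0.870 ± 0.401 (n = 16), iDTR at 0.655 ± 0.319 and Bmal1-flox at 26.2 ± 2.44 (n = 15), so the control libraries were as low as those of the line with an insertion at this locus, which puts their WT label in doubt. Arntl in whole skin was 39.6 ± 12.3 in control and 40.6 ± 12.5 in Bmal1-flox. The clock gene Dbp, which peaked between 6.23 and 11.3 h in the other 4 tissues, peaked at 3.44 h (IgG) and 0.301 h (anti-Ly6G) in lung, so the ZT labels or treatment labels of lung are in doubt and lung values are given by label only. In gut 3 libraries (2 anti-Ly6G, 1 IgG) held transcripts of male accessory glands or pancreas, and no group difference of a collagen gene was called in gut with or without them. Without them 3 gut rhythm calls were lost: Col4a1 with IgG (adjusted p = 0.0724) and Col15a1 (0.129) and Col9a2 (0.0631) with anti-Ly6G. The 3 gut IgG libraries of ZT 21 carry the letters bm in their titles, and were kept as gut by their other labels.

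Each tissue had its own leading collagens when values were divided by transcript length (values per kb). Because every table was normalised on its own, values are compared between genes within a tissue and only side by side between tissues. In bone marrow Col1a2 (837 per kb) and Col1a1 (695 per kb), the chains of type I collagen, made up 48.2% and 40.1% of the collagen signal per kb. They were followed by Col11a2 (42.2), Col5a2 (31.0) and Col11a1 (29.1), chains of the minor fibrillar collagens XI and V that set fibril width. In skin Col1a2 (374 per kb), Col3a1 (368), Col1a1 (359) and Col17a1 (344), the hemidesmosome collagen of basal keratinocytes, stood close together, ahead of Col6a1 (91.5), a beaded-filament chain.

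Lung was led by the basement membrane chain Col4a1 (124 per kb), then Col3a1 (114), Col4a2 (112), Col1a2 (86.9) and Col6a1 (75.5). In gut Col3a1, the reticular-fibre chain, led at 89.5 per kb, ahead of Col1a2 (36.6), Col6a1 (28.4), Col6a2 (23.8) and Col4a1 (21.6). Liver was set apart by 1 gene: Col18a1, the source of endostatin and a liver basement membrane component, held 172 per kb, 76.7% of the collagen signal per kb. The next in liver were Col27a1 (11.7), Col14a1 (7.81), Col5a3 (7.80) and Col3a1 (5.08).

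As a share of all signal in a library, collagen genes took 1.35% ± 0.275 (n = 16) in control skin and 1.05% ± 0.616 (n = 18) in IgG marrow. They took 0.475% ± 0.0543 in IgG lung, 0.175% ± 0.0314 in IgG gut and 0.117% ± 0.0118 in IgG liver (n = 18 each). Of the 43 genes, 19 reached the mean of 1 in all 5 tissues and 2 in a single tissue. The genes nearest the limit were Col10a1 (1.05) above and Col6a5 (0.838) below in marrow, Col4a3 (1.02) and Col26a1 (0.970) in gut, and Col20a1 (1.12) and Col11a2 (0.811) in liver. In lung they were Col9a3 (1.06) and Col22a1 (0.759), and in skin Col26a1 (2.51) and Col6a5 (0.407).

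**Figure D1:**
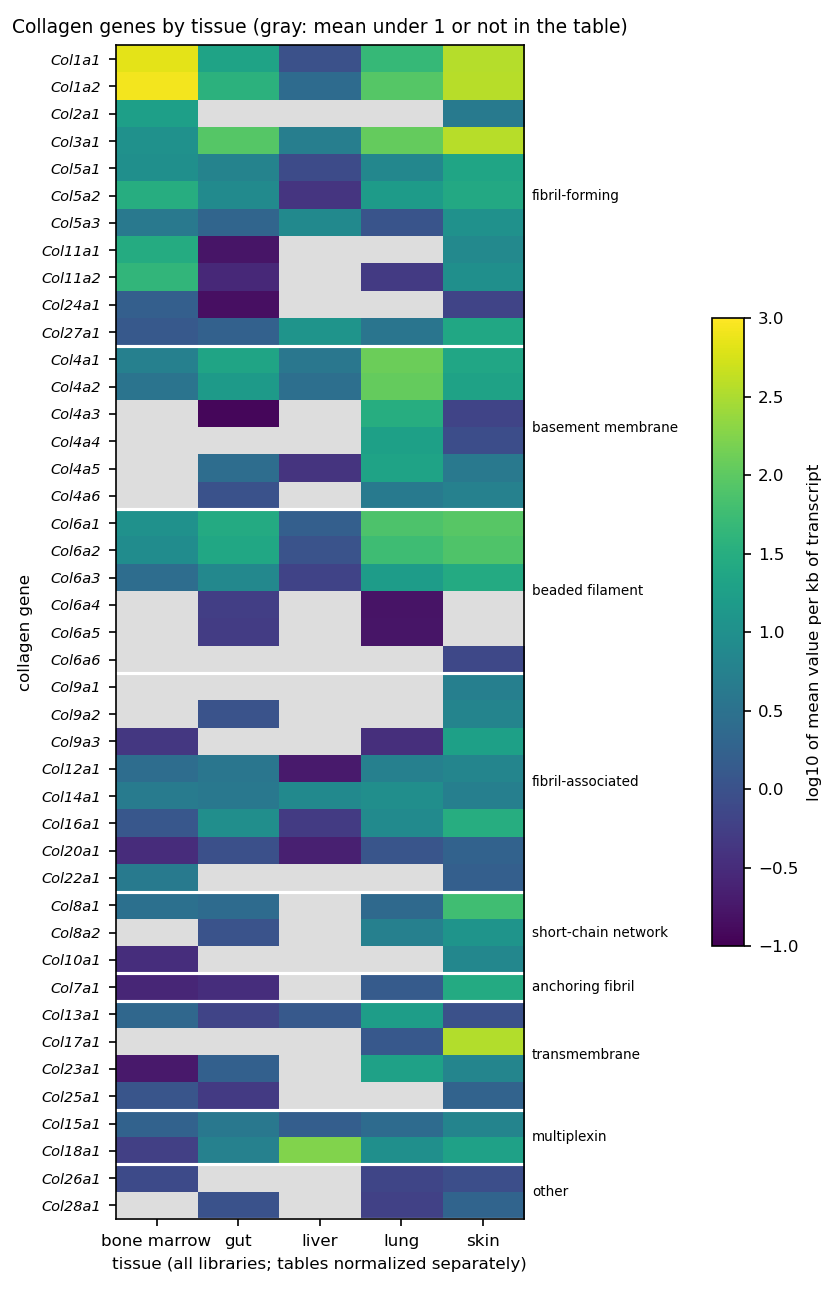
Heat map of the mean value per kb of transcript (log10 colour scale) for each collagen gene (rows, by class) in each tissue (columns), with gray where the mean was under 1 or the gene was not in the table. Col1a1 and Col1a2 stand far above the rest in bone marrow, Col18a1 does so in liver, and in skin Col1a1, Col1a2, Col3a1 and Col17a1 lie together between 344 and 374 per kb.

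Promoters of the genes that the later results turn on are shown from 250 bases before to 50 bases after the RefSeq start (build GRCm38.p6), in the direction of transcription. Col1a2 is the type I chain that departed from its partner in some libraries, Col4a1 and Col4a2 are the head-to-head basement membrane pair, and Col5a3 and Col27a1 carried the largest daily rhythms. Capitals mark CCAAT on either strand (ATTGG on the other).
Col1a2, chr6:4505368-4505667, plus strand: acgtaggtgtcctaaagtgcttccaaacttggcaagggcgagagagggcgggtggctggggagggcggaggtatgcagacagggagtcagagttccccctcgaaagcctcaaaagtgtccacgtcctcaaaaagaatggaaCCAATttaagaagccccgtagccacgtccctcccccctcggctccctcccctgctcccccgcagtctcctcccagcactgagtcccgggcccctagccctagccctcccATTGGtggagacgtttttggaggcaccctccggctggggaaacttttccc
Col4a1, chr8:11312777-11313076, minus strand: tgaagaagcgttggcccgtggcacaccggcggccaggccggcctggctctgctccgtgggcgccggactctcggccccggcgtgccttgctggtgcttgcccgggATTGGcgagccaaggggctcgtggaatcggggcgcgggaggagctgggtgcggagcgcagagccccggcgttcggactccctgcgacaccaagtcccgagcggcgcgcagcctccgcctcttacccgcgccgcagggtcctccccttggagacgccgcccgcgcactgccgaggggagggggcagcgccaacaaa
Col4a2, chr8:11312555-11312854, plus strand: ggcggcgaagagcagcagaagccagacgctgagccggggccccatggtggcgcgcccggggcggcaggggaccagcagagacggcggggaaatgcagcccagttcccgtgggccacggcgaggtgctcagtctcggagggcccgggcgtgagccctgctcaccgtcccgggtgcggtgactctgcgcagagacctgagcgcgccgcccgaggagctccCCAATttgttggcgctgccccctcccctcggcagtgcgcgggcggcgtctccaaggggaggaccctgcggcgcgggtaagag
Col5a3, chr9:20815018-20815317, minus strand: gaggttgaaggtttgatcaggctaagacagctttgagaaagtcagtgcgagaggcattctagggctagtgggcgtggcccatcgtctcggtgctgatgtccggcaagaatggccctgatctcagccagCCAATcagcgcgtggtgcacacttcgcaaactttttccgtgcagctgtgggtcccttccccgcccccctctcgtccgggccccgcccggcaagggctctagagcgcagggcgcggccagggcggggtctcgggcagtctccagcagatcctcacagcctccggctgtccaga
Col27a1, chr4:63215162-63215461, plus strand: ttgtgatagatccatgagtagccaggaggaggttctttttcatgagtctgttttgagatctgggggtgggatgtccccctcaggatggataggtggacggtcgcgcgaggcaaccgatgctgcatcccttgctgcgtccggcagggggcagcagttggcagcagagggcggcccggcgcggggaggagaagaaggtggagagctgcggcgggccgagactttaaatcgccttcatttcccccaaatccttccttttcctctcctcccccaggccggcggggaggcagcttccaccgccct

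The starts of Col4a1 and Col4a2 lie 21 bases apart on opposite strands, and their windows share 78 bases. Windows were matched for 34 of the 43 genes, 37 windows in all. CCAAT stood in 13 of them (35.1%) and in 37.4% of all 32851 windows of the same length, and TATAAA in 5 (13.5%) against 13.6%. Of the clock elements searched on both strands, the E-box CACGTG (7.15% of all windows), the D-box forms TTATGTAA (0.938%) and TTACGTAA (0.119%) and the ROR form TAGGTCA (2.61%) were in none of the 37. The E-box variant CACGTT (4.68%) was in the windows of Col4a4 and Col6a6, the ROR form TGGGTCA (3.98%) in that of Col17a1, and the glucocorticoid form ACANNNTGT (6.85%) in that of Col20a1. None of these forms contains another. A missing match says only that these letters are not in this window, and the windows of Col1a1 and Col12a1 were not used here.

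In skin, collagen RNA was lower in iDTR than in control mice across most of the family. Of 41 collagen genes 31 fell, 2 rose and 8 did not pass the test (limma on log2 values plus 1, adjusted p under 0.05 over all genes tested). The background was wide: 63% of all genes passed, 32.4% lower and 30.6% higher. The median log2 difference was -0.60 over the collagen genes and -0.02 over all genes tested. The collagen share of all signal was 0.729% ± 0.154 in iDTR (n = 16), against 1.35% ± 0.275 in control. In whole skin, fewer cells of a type and less RNA per cell cannot be told apart. The mice are single animals at each ZT, and the p-values measure the spread between them around a 24 h cosine.

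All 11 fibril-forming genes fell, with a median of -1.11. Col1a1 (chr11:94936224-94953042) ranged in control from 1676 over a median of 2533 to 4753, and in iDTR from 291 over 980.05 to 1659. The groups did not overlap, with iDTR lower at 16 of 16 ZT (log2 difference -1.48, SE 0.161, limma adjusted p = 3.69e-11). Its partner Col1a2 (chr6:4504814-4541544) ran from 1717 over 2561 to 4508 in control and from 371 over 1024 to 1727 in iDTR. Here the highest iDTR library just passed the lowest control library (-1.43, SE 0.175). Col3a1 (chr1:45311538-45349706) lay between 1518 and 4452 in control and between 377 and 1475 in iDTR, again without overlap (-1.49, SE 0.151, adjusted p = 5.70e-12).

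The minor fibrillar chains followed with different sizes. Col5a1 went from a median of 213 (163 to 376) to 96.4 (57.4 to 129), without overlap (-1.27, SE 0.103). Col11a2 had medians of 66.8 and 26.5 and ranges that overlapped (-1.27, SE 0.126). Col5a2 changed less (-0.68, SE 0.0820) and Col5a3 least of the 11 (-0.27, SE 0.0778, lower at 11 of 16 ZT). Col2a1 (-1.11), Col27a1 (-0.78), Col24a1 (-0.76) and Col11a1 (-0.53) lay between them.

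Of 8 fibril-associated genes, which coat or link fibrils, 7 fell and 1 rose. The largest log2 difference of any collagen gene was that of Col9a1, a cartilage-type chain: 14.2 to 38.8 (median 29.4) in control and 4.86 to 13.0 (median 8.62) in iDTR. These groups did not overlap (-1.54, SE 0.128, adjusted p = 9.43e-15). Col14a1, which regulates fibril growth in tendon and dermis, fell from a median of 36.8 to 15.6 without overlap (-1.44, SE 0.125). Col12a1, a related fibril linker, went the other way. It held 54.4 to 92.0 (median 66.1) in control and 75.2 to 125 (median 93.9) in iDTR, with overlap, and was higher at 15 of 16 ZT (0.50, SE 0.0636, adjusted p = 2.54e-09).

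All 4 beaded-filament (type VI) genes fell. Col6a6 had the largest difference, from a median of 8.58 (5.01 to 12.4) to 2.50 (0.794 to 4.21), without overlap (-1.48, SE 0.116). Col6a1 fell from a median of 394 (301 to 580.1) to 267 (154 to 362), with overlap (-0.62, SE 0.0919). Col6a2 (-0.59) and Col6a3 (-0.48) were close to it. The anchoring-fibril gene Col7a1, which ties epidermis to dermis, fell by 0.45 on the log2 scale (SE 0.0701). Of the 3 short-chain network genes Col8a1 (-1.23) and Col8a2 (-0.61) fell, and of the 2 endostatin-type genes Col15a1 fell (-0.43).

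The 6 basement membrane genes split. Col4a3 (-0.71), Col4a4 (-0.85), Col4a5 (-0.77) and Col4a6 (-1.20) fell. Col4a6 lay at 41.6 to 58.7 in control and 15.8 to 27.0 in iDTR, without overlap. The head-to-head pair did not pass. Col4a1 (chr8:11198423-11312826) had 112 to 170 (median 139) in control and 73.3 to 276 (median 181) in iDTR (0.23, SE 0.114, adjusted p = 0.0734). Col4a2 (chr8:11312805-11449287) had 96.3 to 150 and 65.5 to 211 (0.03, SE 0.0962, adjusted p = 0.815). The iDTR ranges enclosed those of control on both sides for both genes.

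Membrane-spanning collagens also went separate ways. Col23a1 (chr11:51289920-51583918), an epithelial transmembrane collagen that binds integrin, rose most. Control libraries held 26.5 to 36.2 (median 29.5) and iDTR libraries 41.1 to 64.8 (median 54.1). The groups did not overlap and iDTR was higher at 16 of 16 ZT (0.83, SE 0.0566, adjusted p = 1.38e-17). Col17a1 (chr19:47646344-47692094), at 1626 to 2159 in control and 1669 to 2186 in iDTR, showed a log2 difference of 0.00 (SE 0.0367, 95% interval -0.07 to 0.07). Col13a1 fell (-0.57) and Col25a1 did not pass (-0.21). Also short of the test were Col18a1 (0.08), Col10a1 (0.21), Col26a1 (0.04) and Col28a1 (0.10). Col10a1 lies within Nt5dc1 on the other strand, and whether the counting used strand is not given in the sources used here. Other collagen genes overlap listed genes too, among them Col18a1 (Slc19a1, other strand) and Col20a1 (BX649560.1, same strand). BX649560.1 had a higher mean than Col20a1 in skin (10.8 against 9.24), gut (7.48 against 4.75) and liver (2.64 against 1.12). How reads were divided between the overlapping genes was not tested.

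**Figure D2:**
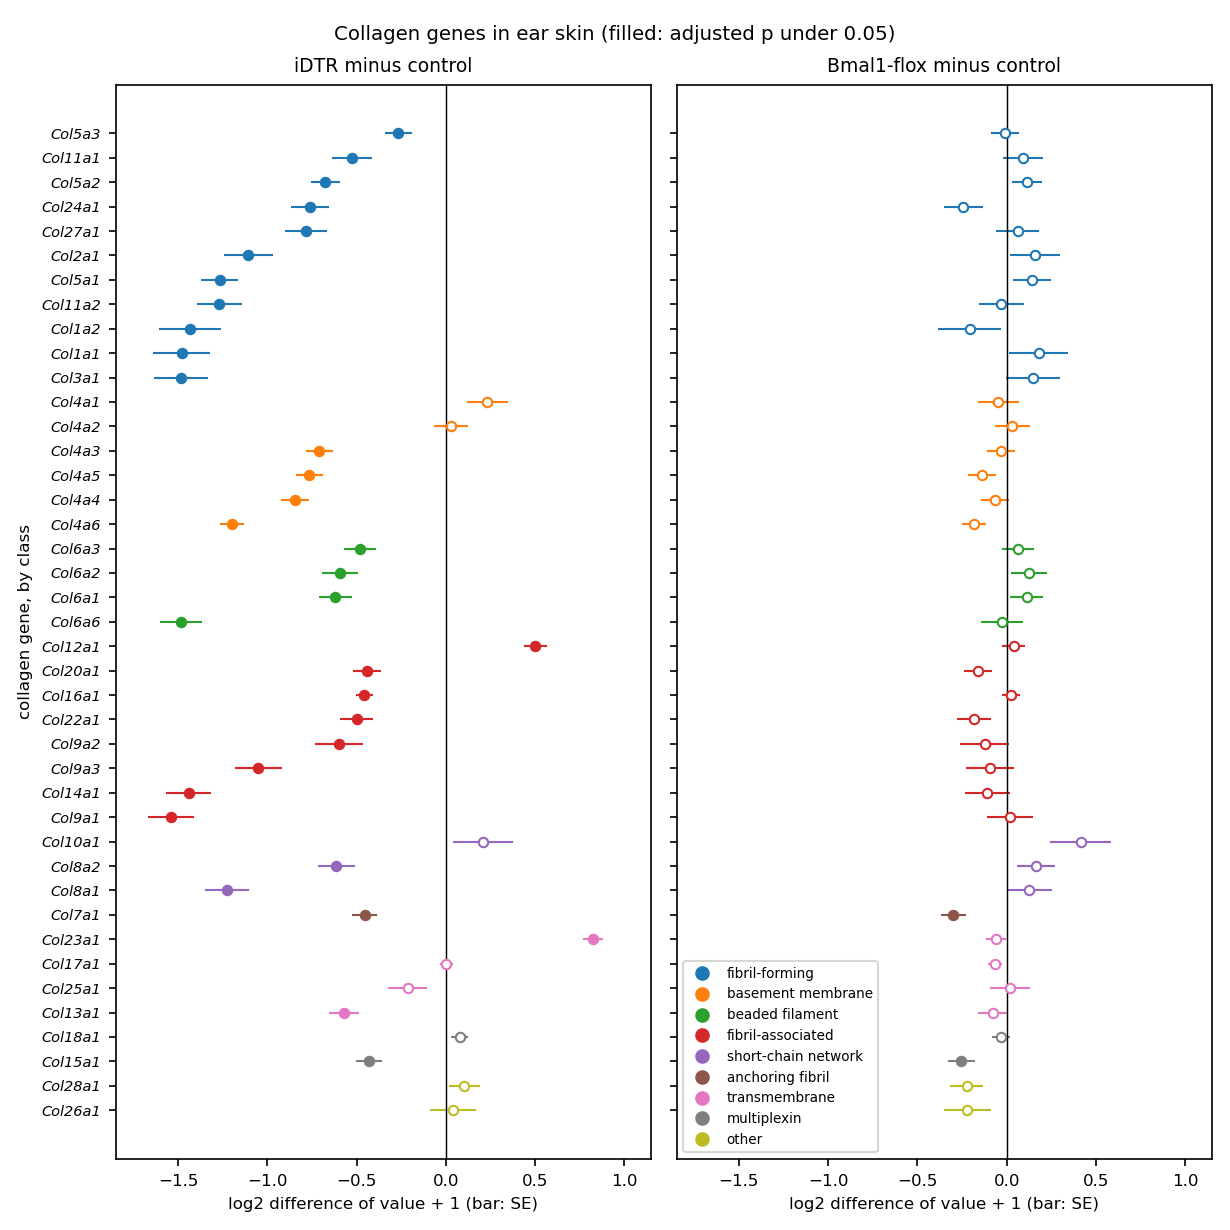
Log2 differences of the 41 collagen genes in skin, iDTR minus control and Bmal1-flox minus control, with bars for the SE, coloured by collagen class and filled where the adjusted p was under 0.05. All 11 fibril-forming genes lie below 0 for iDTR, Col23a1 (0.83) and Col12a1 (0.50) lie above it, and Bmal1-flox differences lie between -0.30 and 0.41.

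Across the family 12 of 41 genes had iDTR and control ranges that did not overlap, and so did 8.24% of all genes. The 4 lowest iDTR libraries for Col1a1 were those at ZT 3 (291), ZT 22 (499), ZT 1 (516) and ZT 24 (635), and at these times Col4a1 held 73.3, 109, 96.2 and 125. Without all skin libraries of those 4 times, a choice made after seeing the data, 31 genes fell, 4 rose and the median was -0.55. Col1a1 then differed by -1.15 and Col3a1 by -1.24.

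**Figure D3:**
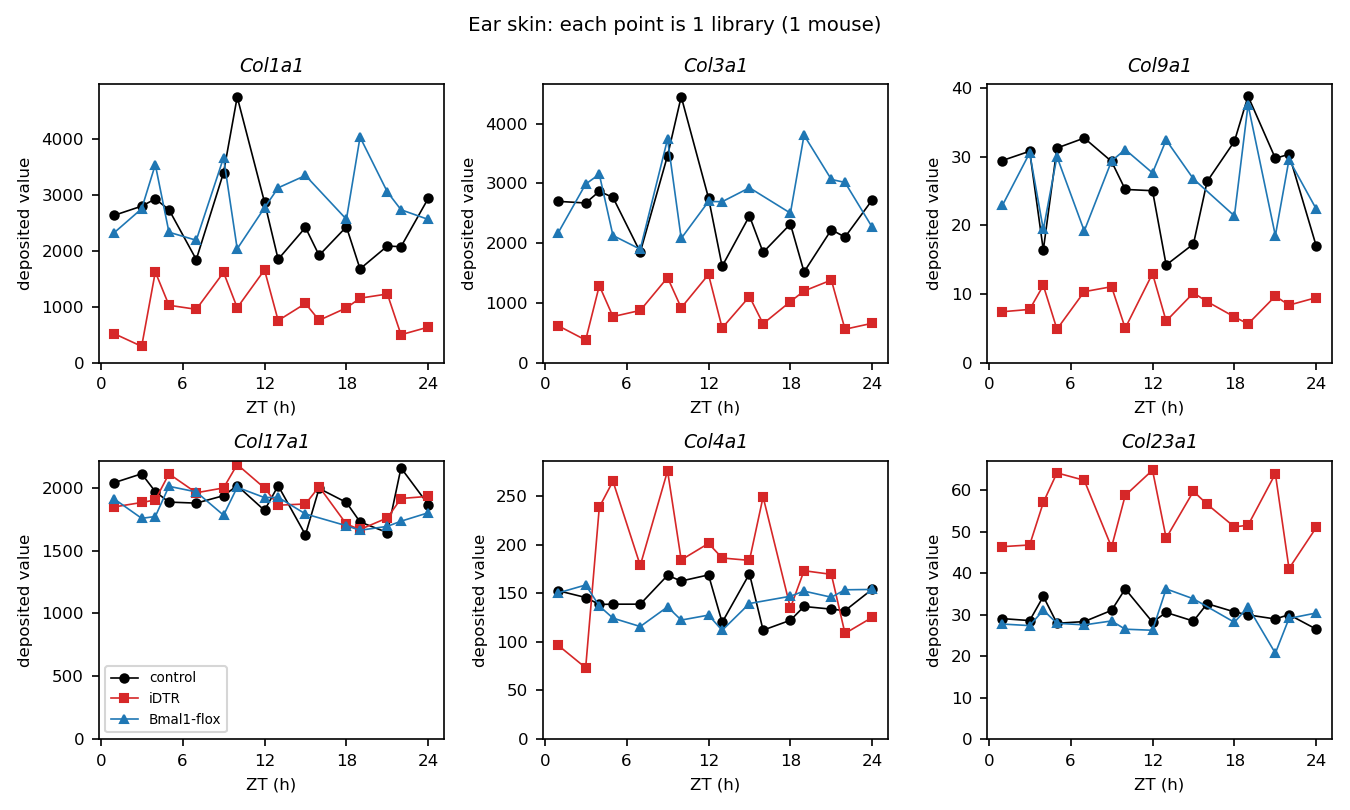
Deposited values of 6 collagen genes in every skin library against ZT, in hours, with 1 point per mouse and a line joining the points of each group. For Col1a1, Col3a1 and Col9a1 every iDTR point lies under every control point, for Col23a1 every iDTR point lies above, and for Col17a1 and Col4a1 the groups cross.

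The machinery that makes and handles collagen was examined through lists of related genes. Of 31 collagen biosynthesis genes tested in iDTR against control, 18 fell and 5 rose (median -0.23). The largest falls were Loxl2, a crosslinking lysyl oxidase (medians 57.4 and 28.0, -1.0), Creb3l1, a transcription factor for secretory collagen genes (-0.94), Adamts14, a procollagen N-proteinase (-0.94) and Fkbp14, a folding enzyme (-0.82). The collagen chaperone Serpinh1 fell from a median of 119 to 87.7 (-0.45, SE 0.0649). Of those that rose, P4hb, a prolyl hydroxylase subunit that also folds other proteins, differed by 0.38 and the lysyl hydroxylase Plod3 by 0.35.

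Of 20 matrix partner genes 14 fell and 3 rose. Nid2, a basement membrane linker (-1.05), the collagen-binding Sparc (medians 1636 and 915, -0.91), fibronectin Fn1 (-0.83) and lumican Lum (-0.76) fell most. Of 15 turnover genes 7 fell and 4 rose. Timp1, an inhibitor of collagenases, went from 1.78 to 7.25 (median 4.63) in control to 15.1 to 34.6 (median 23.1) in iDTR, without overlap (2.18, SE 0.136, adjusted p = 4.85e-19). The proteases Mmp3 (0.64) and Mmp13 (0.63) rose and cathepsin Ctsk fell (-0.62).

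Of 8 collagen receptor genes 4 rose and 1 fell: Ddr2 (0.47), Itga2 (0.39) and Itgb1 (0.27) were among those that rose, and Itga11, a fibroblast collagen receptor, fell (-0.68). Of 14 genes of the TGF-beta pathway, a main inducer of collagen genes, 7 rose and 4 fell. The ligand Tgfb1 rose (medians 32.3 and 45.7, 0.53), as did the feedback inhibitor Skil (0.41), and the ligand Tgfb2 (-0.65) and the latent binding protein Ltbp2 (-0.73) fell. These lists were read against the same 63% of genes called in either direction.

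Cell type markers moved in the same comparison, where 63% of all genes passed, 32.4% lower and 30.6% higher. The part of these markers in the collagen values was not tested. Of 9 fibroblast markers 6 fell and none rose, led by Dpt (-1.08), with Pdgfra at -0.03 and not passed. Their summed level was 4196 to 5666 in control and 2190 to 4815 in iDTR. Of 10 cartilage markers 8 fell and 2 rose (median -0.74), with sums of 645 to 1375 and 895 to 1530. The sum is weighted to the most abundant markers, and its range did not go lower although most markers fell. All 8 adipocyte markers fell, with sums of 420 to 632 and 171 to 559. Of 10 keratinocyte markers 6 rose and 2 fell. Krt14, the basal keratin, rose (medians 3984 and 8099, 0.98) and Krt15, of quiescent basal and bulge cells, fell (-1.56), with sums of 27470 to 42268 and 33283 to 50557. All 6 neutrophil genes tested rose, including Lcn2 (2.55) and S100a8 (1.32), with sums over 11 listed genes of 27.7 to 64.0 and 63.6 to 166. Retnlg, Stfa2l1, Ngp and Ltf averaged under 1 in all 3 skin groups. Of the other lists, 9 of 10 skeletal muscle markers fell (median -0.47, sums of 4012 to 9367 and 2805 to 6640), as did 6 of 8 nerve glia markers (-0.39, 449 to 698 and 287 to 478). Of 10 endothelial markers 5 fell (-0.17, 189.6 to 294 and 178 to 288), and of 8 tested hepatic stellate markers 5 fell (-0.30). Lists called in both directions included smooth muscle (of 8 tested, 3 rose and 2 fell) and macrophage (of 7, 1 rose and 2 fell). Mast cell markers (of 8, 2 rose and 1 fell) and glucocorticoid response genes (of 10, 3 rose and 2 fell) were mixed too. Of 8 immediate early genes, which respond quickly to stimuli, 5 rose and none fell (median 1.14, sums of 358 to 2663 and 815 to 4755). In the fibroblast, endothelial, stellate and immediate early lists the share called in either direction was close to or under the 63% of all genes. Every listed fibroblast, cartilage, adipocyte and keratinocyte marker averaged at least 1.

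Between Bmal1-flox and control mice few collagen genes differed. By the labels these groups differ in Cre, toxin and the floxed allele together, and the parts of these cannot be told apart. Of 41 tested 2 fell and none rose, where 5.63% of all genes passed and 3.21% fell. Col7a1 ran from 256 over a median of 294 to 387 in control and from 202 over 240.1 to 347 in Bmal1-flox. The ranges overlapped, with Bmal1-flox lower at 12 of 15 ZT (-0.30, SE 0.0713, adjusted p = 0.00535). Col15a1, a basement membrane zone collagen of vessels and nerves, had medians of 37.9 (27.2 to 51.5) and 30.03 (27.8 to 41.5), also with overlap (-0.26, SE 0.0758, adjusted p = 0.0333). That call was lost without any 1 of 9 single libraries. Col1a1 (0.18), Col3a1 (0.15), Col4a1 (-0.05), Col4a2 (0.03), Col6a1 (0.11) and Col1a2 (-0.21) did not pass. The median over collagen genes was -0.03 and over all genes 0.0005.

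Set directly against Bmal1-flox, iDTR had 30 collagen genes lower and 5 higher, where 61.5% of all genes passed, 31% lower and 30.5% higher. Col1a1 differed by -1.66 (SE 0.163), Col3a1 by -1.63 (SE 0.154) and Col9a1 by -1.56 (SE 0.130), each lower at 15 of 15 ZT and without overlap. Col6a6 (-1.46), Col5a1 (-1.41), Col8a1 (-1.35), Col14a1 (-1.33) and Col2a1 (-1.27) came next. Col23a1 (0.89), Col12a1 (0.46), Col28a1 (0.33), Col4a1 (0.28) and Col18a1 (0.11) were higher. This comparison shares the iDTR libraries with the one against control. The calls of Col4a1, Col15a1 and Col18a1 were lost in 19, 24 and 51 of 72 alternatives. Col7a1, lower than control in both groups, did not pass here (-0.15, adjusted p = 0.0573).

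The 2 chains of type I collagen varied together in marrow and in control and iDTR skin. The protein is usually built from chains of both genes, with more alpha1 than alpha2. In control skin the log2 ratio of Col1a1 to Col1a2 was -0.04 ± 0.06 (n = 16) and in iDTR -0.09 ± 0.12 (n = 16), while the SD of log2 Col1a1 within iDTR was 0.69. In IgG marrow the ratio was -0.12 ± 0.07 (n = 18) against an SD of 1.00 for Col1a1 and 1.01 for Col1a2, so the chains varied together over a range from 917 to 10228 of Col1a1. In gut, lung and liver the ratio was less tight beside the spread of the chains. It was -0.67 ± 0.18 in IgG gut, where Col1a1 had an SD of 0.31 and Col1a2 of 0.23, and -0.76 ± 0.14 in IgG lung (SDs of 0.32 and 0.21). In IgG liver it was -1.16 ± 0.26, as wide as the spread of Col1a2 itself (SD 0.26).

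Bmal1-flox skin fell into separate levels. In 5 of 15 libraries, at ZT 4, 5, 9, 10 and 13, the linear ratio was 1.88 to 2.13, and in the other 10 it was 0.954 to 1.08, with none between. In those 5 libraries Col1a2 held 1081 to 1864 and Col1a1 2036 to 3667, and in the 10 Col1a2 held 2095 to 3939 and Col1a1 2189 to 4035. Col3a1 overlapped between them (2079 to 3742, and 1898 to 3807). Nearby genes on chromosome 6 overlapped too, with Casd1, which lies downstream, at 22.6 to 27.1 and 23.8 to 29.4 and Bet1 at 40.8 to 48.4 and 41.6 to 46.6. These neighbours were chosen after the values were seen, and no test was run on libraries picked by their own values. The libraries at ZT 7 and ZT 12, which fall between those times, had ratios of 1.05 and 0.982.

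**Figure D4:**
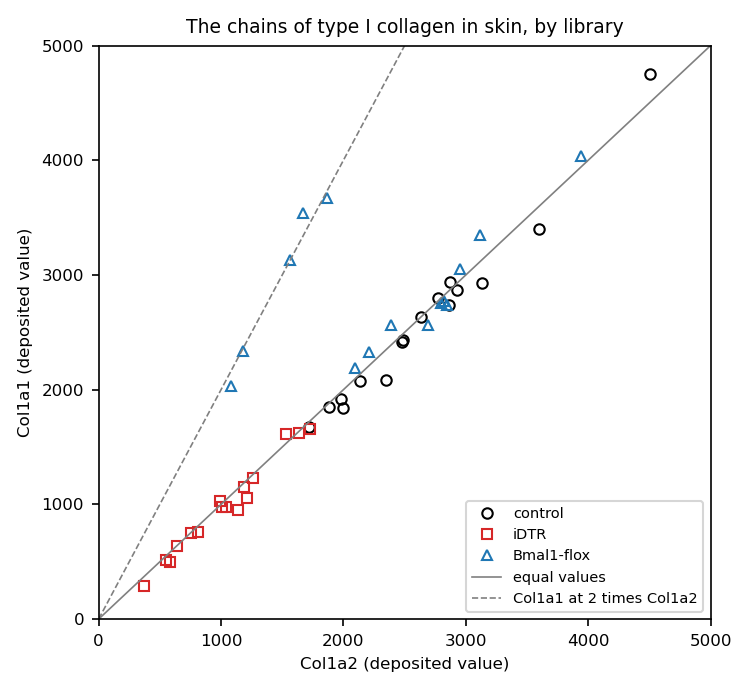
Col1a1 against Col1a2 in each skin library, in deposited values, with lines for equal values and for Col1a1 at 2 times Col1a2. Control and iDTR libraries follow the line of equal values, and 5 Bmal1-flox libraries lie along the steeper line.

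Other chain pairs shifted in iDTR, given here as descriptions. The log2 ratio of Col5a1 to Col5a2, partners in type V fibrils, was 0.20 ± 0.11 in control and -0.39 ± 0.14 in iDTR, and the ranges did not overlap (-0.01 to 0.40, and -0.61 to -0.19). That of Col11a1 to Col11a2 was -0.05 ± 0.21 and 0.72 ± 0.18, with ranges that overlapped. Col9a1 to Col9a2 went from 0.27 ± 0.44 to -0.75 ± 0.55. Col6a1 to Col6a2 stayed close, at 0.26 ± 0.05 and 0.24 ± 0.06. Bmal1-flox held 0.23 ± 0.07 for Col5a1 to Col5a2.

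Between the antibody groups few collagen genes differed. In bone marrow 1 of 31 collagen genes passed, where 17.1% of all genes passed and 7.16% fell. Col5a3 (chr9:20770050-20815067), a minor fibrillar chain of type V collagen, ran from 20.9 over a median of 25.8 to 46.9 with IgG and from 15.1 over 22.1 to 30.9 with anti-Ly6G. The ranges overlapped, and the mean was lower at 6 of 6 ZT (-0.32, SE 0.0701, adjusted p = 0.00153). The gap was widest at ZT 5, at 38.3 (31.2 to 46.9) with IgG and 24.2 (20.04 to 28.6) with anti-Ly6G, 3 mice each. Col4a2 had medians of 20.7 and 23.5 and did not pass (0.20, SE 0.0771, adjusted p = 0.0712).

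The major marrow collagens varied widely between mice. Col1a1 ran from 917 over a median of 4275 to 10228 with IgG and from 1568 over 3574 to 7201 with anti-Ly6G (-0.04, SE 0.252). The groups overlapped, and the 95% interval of the difference was -0.53 to 0.45. Col1a2 (-0.06), Col3a1 (-0.05), Col4a1 (0.16) and Col6a1 (0.20) did not pass. The 12 bone markers summed to 266 to 1944 with IgG and 393 to 1189 with anti-Ly6G, and 10 skeletal muscle markers to 215 to 1301 and 48.7 to 2149. Their part in these values was not tested.

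In gut 0 of 34 collagen genes passed, where 0.0132% of all genes did. By limma 4 had an unadjusted p under 0.05: Col11a1 (0.29, adjusted p = 0.116), Col25a1 (0.18), Col23a1 (0.27) and Col6a5 (-0.19). Col3a1, the leading gut collagen, held 285 to 778 (median 511) with IgG and 327 to 611 (median 477) with anti-Ly6G, which overlap (-0.12, SE 0.0721, adjusted p = 0.480). Col1a1 (-0.10), Col1a2 (-0.09), Col4a1 (0.04), Col4a2 (0.03) and Col6a1 (0.02) in gut did not pass either. In liver 0 of 20 passed, where 1.4% of all genes did, and only Col4a2 had an unadjusted p under 0.05 (-0.20, adjusted p = 0.204). The dominant Col18a1 held 715 to 1076 (median 799) and 649 to 957 (median 811), which overlap. Liver Col1a1 (-0.19), Col1a2 (-0.06), Col3a1 (-0.18), Col4a1 (-0.06) and Col6a1 (0.00) did not pass.

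In lung, by its labels, 0 of 34 passed, as did 0% of all genes. By limma 4 had an unadjusted p under 0.05: Col1a1 (0.19, adjusted p = 0.481), Col15a1 (0.21), Col6a2 (0.10) and Col8a2 (-0.17). Col4a1, the leading lung collagen, held 610.1 to 975 (median 801) with IgG and 709 to 948 (median 833) with anti-Ly6G, which overlap. Lung Col1a2 (0.10), Col3a1 (0.20), Col4a1 (0.06), Col4a2 (0.03) and Col6a1 (0.04) did not pass. The median log2 difference over collagen genes was 0.06 in lung, -0.02 in gut, -0.04 in marrow and -0.06 in liver, and over all genes it lay within 0.005 of 0 in each.

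Daily rhythms of collagen genes were found in gut and liver in numbers near those of other genes. A rhythm was called where a 24 h cosine fitted to a group passed an adjusted p of 0.05. In gut 12 of 34 collagen genes were rhythmic with IgG (background 33.6%) and 8 of 34 with anti-Ly6G (24.6%). In liver 8 of 20 (42.9%) and 7 of 20 (34.7%) were, and in lung 5 of 34 (11.2%) and 5 of 34 (12.7%). In marrow 0 of 31 were rhythmic with IgG (1.62%, with 2 at an unadjusted p under 0.05 by limma) and 0 of 31 with anti-Ly6G (0.406%, with none). In skin 1 of 41 was rhythmic in control (0.383%), 5 of 41 in iDTR (10.9%) and 0 of 41 in Bmal1-flox (0.326%, with 5 at an unadjusted p under 0.05 by limma). The background is printed beside each count, and 22 of the 43 genes were called in no group.

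Col5a3 was called in 7 of 11 groups, and the next genes (Col18a1, Col4a1 and Col5a1) in 4. In gut with IgG its mean was 19.9 (15.4 to 25.9, 3 mice) at ZT 1, 16.1 at ZT 5, 8.89 at ZT 9, 8.37 (7.38 to 9.23) at ZT 13, 9.11 at ZT 17 and 13.5 at ZT 21. All 3 mice at ZT 1 lay above all 3 at ZT 13. In liver with IgG it was 67.2 (56.8 to 84.9) at ZT 1, 51.0 at ZT 5, 42.2 at ZT 9, 31.3 (26.4 to 35.4) at ZT 13, 33.5 at ZT 17 and 57.7 at ZT 21, also without overlap between ZT 1 and ZT 13. The peaks fell at 1.35 h (SE 0.539) and 1.34 h (SE 0.617), with peak-to-trough folds of 2.31 and 2.08 and adjusted p of 9.89e-06 and 3.50e-05 by limma.

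With anti-Ly6G Col5a3 peaked at 1.05 h in gut (2.08-fold) and 1.12 h in liver (2.08-fold). In control skin it peaked at 6.06 h (1.87-fold, adjusted p = 0.000822). The single mice held 90.5 at ZT 9 and 99.7 at ZT 10 at the high end and 42.4 at ZT 16 and 42.0 at ZT 18 at the low end. In iDTR skin its rhythm did not pass (adjusted p = 0.572) and in Bmal1-flox neither (adjusted p = 0.136), and the difference in rhythm between iDTR and control did not pass either (unadjusted p = 0.0053, adjusted p = 0.15 by limma). By the lung labels it peaked at 19.4 h (2.4-fold) and 16.7 h (2.0-fold), calls lost without ZT 21 (IgG) and without any 1 of ZT 1, 9, 17 and 21 (anti-Ly6G).

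Col5a3 was set beside Arntl, the clock activator, in the same group. Among groups where its rhythm was called, Col5a3 peaked 2.05 and 2.49 h later in gut, 4.36 and 4.95 h later in liver and 5.33 h later in control skin. In lung, where both peaks carry the doubtful labels, it was 2.73 and 3.24 h later. Where the Col5a3 rhythm did not pass, the fitted lags were 4.94 h in iDTR skin and 3.65 h in Bmal1-flox skin. In marrow they were 10.95 h (IgG) and 14.7 h (anti-Ly6G). There the Arntl rhythm did not pass either (limma adjusted p = 0.381 with IgG and 0.212 with anti-Ly6G). The marrow lags thus rest on uncalled peaks of both genes. All these lags are descriptions over groups that share libraries and differ in sampling times.

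**Figure D5:**
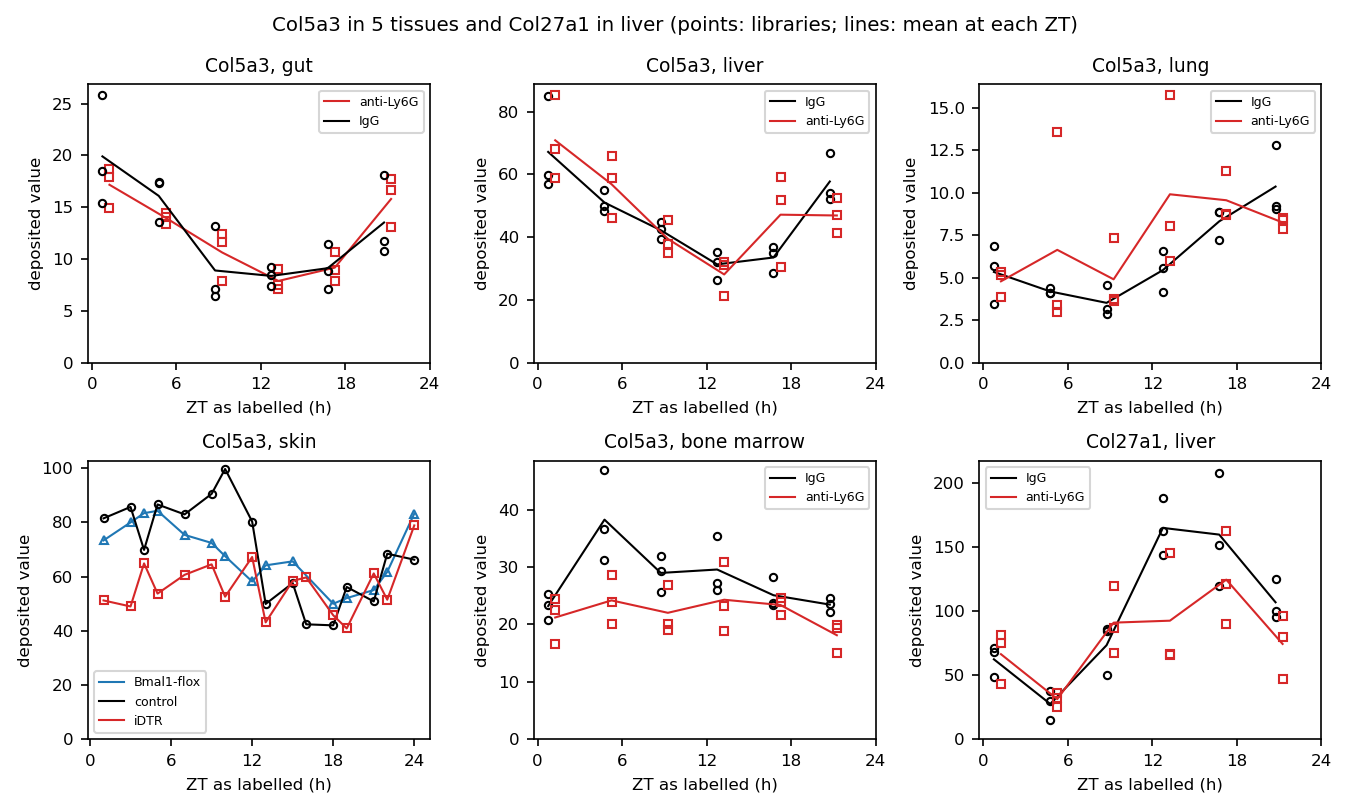
Deposited values of Col5a3 in 5 tissues, and of Col27a1 in liver, against labelled ZT in hours, with points for single mice and lines through the group means. Gut and liver Col5a3 is highest at ZT 1 and low at ZT 13 and 17 with IgG, and liver Col27a1 is lowest at ZT 5 in both treatments.

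Col27a1 (chr4:63214004-63334991), a fibrillar chain known from growth plate cartilage, had the largest fold of the collagen rhythms called in liver. With IgG its mean was 62.2 at ZT 1, 27.4 (15.0 to 37.9) at ZT 5, 73.2 at ZT 9, 165 (144 to 188) at ZT 13, 159 at ZT 17 and 107 at ZT 21. The mice at ZT 5 and ZT 13 did not overlap, and the fit gave 5.31-fold with a peak at 16.2 h (adjusted p = 2.03e-06). With anti-Ly6G the means were 66.2, 31.2, 90.8, 92.3, 124 and 74.2 in the same order, 2.63-fold with a peak at 15.8 h (adjusted p = 0.00374). That call did not pass without ZT 5 (adjusted p = 0.147) or without ZT 17 (0.0523). In gut Col27a1 was called with anti-Ly6G (1.40-fold, peak 14.3 h).

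The basement membrane pair moved together in liver. With IgG Col4a1 peaked at 4.19 h (1.60-fold) and Col4a2 at 5.71 h (1.56-fold). With anti-Ly6G they peaked at 0.638 h (1.73-fold) and 1.95 h (1.55-fold). Col4a1 was highest with IgG at ZT 5, at 36.3 (29.3 to 49.6), and with anti-Ly6G at ZT 1, at 32.6 (27.9 to 38.3). Col18a1 peaked at 3.68 h and 0.962 h (1.24- and 1.25-fold) and Col5a1 at 4.19 h and 22.0 h. With IgG alone Col3a1 was called as well (1.57-fold, peak 7.27 h). Across the alternatives run for rhythms Col27a1, Col5a3 and Col4a2 with IgG, and Col5a3, Col4a1 and Col4a2 with anti-Ly6G, kept their liver calls in all. None of the shifts in time passed the test of differential rhythm in liver, where 6 of 20 had an unadjusted p under 0.05 by limma, the lowest being Col5a1 (p = 0.00438, adjusted p = 0.421).

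In gut with IgG the called fibrillar and beaded-filament chains peaked near lights on. Col6a3 (1.51-fold) peaked at 0.219 h, Col5a1 (1.51-fold) at 1.30 h, Col3a1 (1.58-fold) at 2.20 h, Col1a1 (1.57-fold) at 0.423 h and Col5a2 (1.45-fold) at 1.30 h. With anti-Ly6G Col6a3 (1.34-fold, 23.4 h), Col20a1 (1.5-fold, 6.88 h), Col15a1 (1.47-fold, 0.990 h) and Col28a1 (1.45-fold, 5.92 h) were among the 8. Kept in gut under every alternative run for rhythms were Col5a3, Col6a3, Col5a1, Col3a1 and Col1a1 with IgG and Col5a3 with anti-Ly6G. The call of Col15a1 with anti-Ly6G was lost in 3 of 11, also without the 3 libraries holding transcripts of other organs. In lung, by its labels, Col13a1 (1.5- and 1.56-fold), Col17a1 (1.5- and 1.43-fold) and Col12a1 (1.65- and 1.60-fold) were called in both treatments, and Col5a1 with IgG and Col26a1 with anti-Ly6G. Of these lung calls Col13a1 with anti-Ly6G alone was kept under every alternative run for rhythms. In iDTR skin the called genes were Col18a1 (1.36-fold, peak 19.6 h), Col4a1 (1.87-fold, 11.2 h), Col4a2 (1.66-fold, 11.3 h), Col6a3 (1.49-fold, 15.6 h) and Col6a1 (1.49-fold, 13.2 h). The call of Col6a1 was lost in 10 of 20 alternatives (adjusted p up to 0.159), that of Col6a3 in 6 (up to 0.145) and that of Col4a2 in 1 (0.0503). Each iDTR point is 1 mouse, and the low values of Col4a1 at ZT 22, 24, 1 and 3 given above lie in this rhythm.

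No collagen gene had a rhythm that differed between groups of a tissue at an adjusted p under 0.05. At an adjusted p under 0.05, the share of all genes was 0.007% in marrow, 0% in gut, 0.008% in liver, 0.0511% in lung, 0.144% for iDTR and 0% for Bmal1-flox. At an unadjusted p under 0.05 by limma, collagen genes numbered 0 of 31 in marrow (3.87% of all genes), 0 of 34 in gut (6.49%), 6 of 20 in liver (9.19%) and 5 of 34 in lung (10.98%). Against control they numbered 10 of 41 for iDTR (15.2% of all genes) and 8 of 41 for Bmal1-flox (3.53%). The lowest of those 8 was Col1a2 (p = 0.00223, adjusted p = 0.999 by limma), whose level was split between Bmal1-flox libraries as given above. What that split adds to the p-value was not tested. The lowest adjusted p values were 0.0902 for Col6a3 in iDTR and 0.106 for Col26a1 in lung.

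Among the collagen biosynthesis genes, 9 of 30 were rhythmic in gut with IgG (33.6% of all genes) and 8 with anti-Ly6G (24.6%). In liver 12 of 23 were with IgG (42.9%) and 12 with anti-Ly6G (34.7%). In lung, by its labels, 6 of 32 were with IgG (11.2%) and 12 with anti-Ly6G (12.7%). In iDTR skin 5 of 31 were (10.9%), and in marrow, control skin and Bmal1-flox skin none. The crosslinking enzyme Loxl4 had the widest swing in liver, 6.95-fold with a peak at 22.6 h (IgG) and 12.1-fold at 21.4 h (anti-Ly6G). In gut Lox peaked at 2.12 h (2.13-fold) and 1.66 h (1.89-fold), and the chaperone Serpinh1 at 20.3 h (1.7-fold) and 20.4 h (1.34-fold).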

How the data were processed

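RNA libraries of 5 mouse tissues, made from 200 ng of total RNA and read as single reads of 50 bases per the labels' protocols, were taken from the authors' deposited tables, 1 per tissue. The deposited values are a normalised signal per gene that never reaches 0; from the values, they are estimated counts plus 0.5, scaled by library size, so depth was recovered from the smallest value. The unit is used here as signal. The labels' protocols name cutadapt 1.7.1, then mapping to the Ensembl 84 transcriptome and quantification with RSEM 1.2.20 and Kallisto 0.43.1, and the submitters' processing notes name CASAVA 1.8, RSEM 1.7.1 and limma 3.46; which tool made the deposited signal, and the normalisation, are not given in the sources used here. Reads recovered from the signal were not whole for most values (29.75% to 44.5% whole), so no count test was run.

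Group differences, 24 h rhythms and differences in rhythm were tested with limma 3.58.1 in R 4.3.3 on log2(value + 1). Genes with a mean of at least 1 were tested, with empirical Bayes with a trend. Benjamini-Hochberg adjustment ran over all genes tested, at 0.05. Group differences had two-sided p-values and ZT as a factor (cosine and sine in skin). Rhythms and differences in rhythm were F tests on the cosine and sine fitted to each group, in every tissue. Fold changes are on the log2(value + 1) scale, which understates changes of low genes. The 95% intervals are approximate (normal). The 3 skin groups share 1 estimate of the spread. The script was tested on simulated data. Genes and transcript lengths came from GENCODE M21 (GRCm38), promoters from RefSeq. Each mouse counts as 1 replicate, as the labels give 3 mice per ZT and treatment in antibody tissues and 1 in skin.

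The collagen genes and all gene lists were chosen with earlier results of these data known. Named were the 5 highest genes per kb in a tissue, every called gene or the 8 largest rises and falls, the 6 lowest rhythm p-values in a group, the genes at the limit of 1, and Col1a1, Col1a2, Col3a1, Col4a1, Col4a2 and Col6a1. Alternatives were pseudocounts of 0.1 and 5, no filter, a mean of 4, quantile normalisation, no time term and voom weights. Others were a replicate block in gut and ZT as a factor in skin. The rest left out the 3 gut libraries with transcripts of other organs, and each library or ZT. Rhythms were refitted only with the other pseudocounts, no filter, quantile normalisation, without those gut libraries and without each ZT. For rhythms no other single library was left out and voom weights were not used.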

Additional observations from a re-analysis of the deposited data

How the results depend on the processing

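No called group difference changed direction under any alternative. For rhythms only the loss of a call was recorded, and peak times were not compared between alternatives. For iDTR against control all 33 calls were kept under every alternative in which the gene was tested. Counts were 33 to 34 when a library or ZT was left out and 35 without ZT 22, 24, 1 and 3 (chosen after seeing the data). For iDTR against Bmal1-flox 32 of 35 were kept in the same sense (32 to 37), the exceptions being Col4a1, Col15a1 and Col18a1. In both comparisons Col13a1, with a mean of 3.13 in skin, was not tested under the filter at a mean of 4. Bmal1-flox against control gave 1 to 2 calls: Col15a1 was lost without control replicate 5, 7, 9, 11 or 12, without Bmal1-flox replicate 8, 10, 12 or 13, and without ZT 1, 4, 5, 7, 10, 12 or 21, and the count was also 1 without ZT 22, 24, 1 and 3 together (Col15a1 adjusted p = 0.135). In marrow the count was 1 to 2, with 2 without IgG replicate 6, 8 or 10 or anti-Ly6G replicate 16, and Col5a3 passed under every alternative (log2 difference -0.36 to -0.25, adjusted p 0.00054 to 0.0103). In gut it was 0 to 1, with 1 without ZT 13, and in liver and lung 0.

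Rhythm counts depended more on single times, which were left out in turn. They were 6 to 12 in gut with IgG (6 without ZT 1) and 4 to 8 with anti-Ly6G (5 without ZT 1, 9 or 13 and 4 without ZT 5). They were 5 to 8 in liver with IgG (5 without ZT 5 or 17) and 5 to 6 with anti-Ly6G. In lung they were 3 to 9 with IgG (9 without ZT 5, 3 without ZT 9 or 21) and 1 to 7 with anti-Ly6G (2 without ZT 1, 3 without ZT 5, 1 without ZT 21). In iDTR they were 2 to 10 (2 without ZT 1, 10 without ZT 4, 8 without ZT 13, 3 without ZT 3, 5, 12, 16 or 18). Control skin gave 2 with a pseudocount of 5. Calls kept under every alternative run for rhythms were 5 of 12 and 1 of 8 in gut. In liver they were 3 of 8 and 3 of 7, and in lung 0 of 5 and 1 of 5. In control skin 1 of 1 was kept and in iDTR 2 of 5. The count of differential rhythms in iDTR was 0 to 1, with 1 without ZT 4. Where a ZT was left out fewer libraries were fitted, and the cause of a lost call was not tested.

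In gut the replicate numbers in the titles gave little sign of pairing the mice. There 6 of 18 same-numbered pairs had a correlation of deviations over 0.1 (median 0.03). In skin the title number stands for the ZT in all 3 groups, so same-numbered mice share a ZT. Of 15 to 16 such skin pairs, 3 to 4 had a correlation over 0.1. With ZT and replicate number as a block the count in gut was 0. With ZT as a factor in skin the counts were 33 for iDTR and 2 for Bmal1-flox against control. For iDTR against Bmal1-flox the count was then 34. Depth limits the genes near 1: 1 read was worth up to 0.131 units, and with 1 mouse per ZT in skin, time and mouse cannot be told apart.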
